A study of Mus musculus with 8 samples.

Results

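The cytotoxic effector genes described here are 10 genes through which killer lymphocytes destroy other cells: the granzymes Gzma, Gzmb and Gzmk, perforin (Prf1), Nkg7, cathepsin W (Ctsw), Fas ligand (Fasl), interferon gamma (Ifng) and the transcription factors Eomes and Tbx21. They were taken by symbol from a table of 55450 genes. All 10 were present and among the 16911 genes that passed a filter on low counts. The filter needs 2 libraries only, so a gene scarce in the controls could pass through the other arm. They were followed across 8 tumours of MOC1, a cultured mouse oral carcinoma, grown in the flank of C57BL/6 mice. Every mouse received anti-PD-1, an antibody against a T cell checkpoint receptor, for 32 days, so no group lacks checkpoint blockade. Antisense oligonucleotides (ASOs), short synthetic strands that bind a chosen transcript, were given alongside it. The control ASO arm held 3 tumours, and the Smyd3 ASO arm, aimed at the lysine methyltransferase Smyd3, held 5. Of the 5, the labels mark 2 as responders (numbered 1 and 3) and 2 as non-responders (called 1 and 2 here in accession order), and the tumour numbered 2 carries no mark. The response marks describe an outcome, and the labels do not say how response was scored. They give the tissue as oral tongue carcinoma although the tumours grew in the flank.

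Cytotoxic T cells and natural killer (NK) cells store perforin and granzymes in secretory granules. On contact with a target, perforin opens a path through the membrane, and the granzymes, which are serine proteases, cleave substrates inside the target and start its death. Fas ligand kills by a separate route through the receptor Fas, and interferon gamma signals to surrounding cells. Eomes and T-bet, the product of Tbx21, are related T-box factors that switch on this programme, and PD-1 blockade is meant to release T cells that carry it.

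Libraries held between 22103853.1 and 27258700.1 expected counts. Levels below are CPM, counts scaled to library size after TMM normalisation. Smyd3 itself was at 10.7, 11.9 and 10.6 CPM in the controls. In the Smyd3 ASO arm it was highest in non-responder 1 (9.26 CPM) and responder 1 (8.68). It was at 4.38 in responder 3, 4.58 in the unmarked tumour and 4.88 CPM in non-responder 2. The edgeR log2 fold change of Smyd3 between the arms was −0.80 (SE 0.29). Its false discovery rate (FDR), the p adjusted over all genes tested, was 0.246, and 0.05 was the threshold throughout. Squamous markers were abundant in every tumour, as with Krt14 at 6760 to 14100 CPM. Skeletal muscle RNA stood apart between the arms: the 20 muscle markers summed to 54.1 to 136 CPM in controls and 842 to 14100 CPM in the Smyd3 ASO arm, with the most in responder 3. The part of muscle tissue in the results below was not tested. The tumours were bulk tissue, so more killer cells and more RNA per cell cannot be told apart in any value below.

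The summed level of the 10 genes was 14.1, 25.7 and 14.5 CPM in controls 1 to 3. It was 54.1 in responder 1, 187 in responder 3, 61.7 in the unmarked tumour, 28.7 in non-responder 1 and 56.3 CPM in non-responder 2. Non-responder 1 was therefore next to control 2, and responder 3 stood far above the rest. Responder 3 was the highest of the 8 tumours in 9 of the 10 genes, where 20.2% of all tested genes were highest in that tumour. In 9 of the 10 genes the 4 Smyd3 ASO tumours other than non-responder 1 all lay above all controls, against 9.08% of tested genes.

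**Figure D1:**
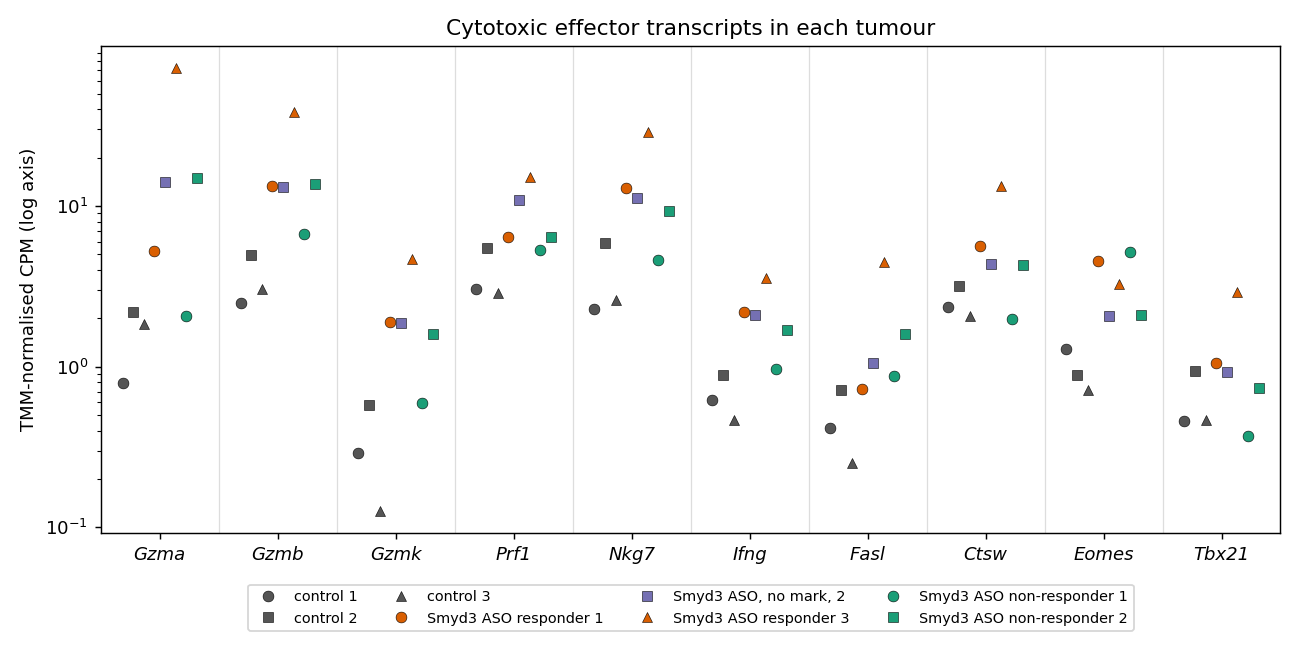
Level of each cytotoxic effector gene in each of the 8 tumours, in TMM-normalised CPM on a log axis, with 1 point per tumour; grey marks controls, orange responders, purple the tumour without a mark and green non-responders. Responder 3 is the highest point for every gene except Eomes, where non-responder 1 is highest at 5.16 CPM.

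Perforin and Nkg7 were measured first among the granule genes. Prf1, which encodes the pore-forming protein, was at 3.03, 5.48 and 2.86 CPM in the controls. In the Smyd3 ASO arm it was at 6.45 in responder 1, 15.1 in responder 3, 10.9 in the unmarked tumour, 5.3 in non-responder 1 and 6.4 CPM in non-responder 2. The arms overlapped through non-responder 1, which lay just under control 2. The difference between the arms was a log2 fold change of 1.22 (SE 0.41, FDR 0.218). Nkg7, a membrane protein of the lytic granule needed for its release, was at 2.29, 5.89 and 2.61 CPM in controls. It was at 13 in responder 1, 29 in responder 3 and 11.2 CPM in the unmarked tumour. It was lower in the non-responders, at 4.65 and 9.28 CPM, and the first of these was again below control 2. The log2 fold change between arms was 1.90 (SE 0.60, FDR 0.197). Ctsw, a papain-like protease found in T and NK cells, was at 2.06 to 3.17 CPM in controls, 4.31 to 13.3 CPM in 4 Smyd3 ASO tumours and 1.98 CPM in non-responder 1, the lowest value of all 8 (log2 fold change 1.23, SE 0.56, FDR 0.336).

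Among the granzymes, Gzmb and Gzmk separated the arms and Gzma varied the most. Gzmb, which cleaves after aspartate and activates caspases, was at 2.49, 4.99 and 3.07 CPM in controls. It was at 13.3 CPM in responder 1, 13.2 in the unmarked tumour, 13.7 in non-responder 2, 38.7 in responder 3 and 6.68 CPM in non-responder 1. All 5 values lay above all controls, and 3 of the Smyd3 ASO tumours were almost alike whatever their response mark. The log2 fold change was 2.28 (SE 0.57, FDR 0.13). Gzmk, typical of memory-like CD8 T cells, was scarce, with 3 to 13 reads per control library (0.126 to 0.58 CPM) and 0.599 to 4.71 CPM in the Smyd3 ASO arm. Its log2 fold change was 2.68 (SE 0.74, FDR 0.149), and the closest values, 0.58 in control 2 and 0.599 CPM in non-responder 1, came from 13 reads each. Gzma, a granzyme that cleaves after basic residues, was at 0.79, 2.18 and 1.85 CPM in controls and at 2.07 CPM in non-responder 1. It was at 5.23 in responder 1, 14.1 in the unmarked tumour, 14.9 in non-responder 2 and 72.3 CPM in responder 3, which held 63.8% of the Gzma signal of all 8 tumours. Its log2 fold change of 3.75 (SE 1.19, FDR 0.198) was the largest of the 10 genes and had the largest standard error, and it was 2.48 without responder 3. That of Gzmk was 3.34 without control 2.

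The make-up of the 3 granzymes also differed between tumours. Gzma was 22.1% to 36.7% of their summed CPM in the controls. It was 25.6% in responder 1 and 22.2% in non-responder 1, but 48.3% in the unmarked tumour, 49.2% in non-responder 2 and 62.5% in responder 3. Gzmb was 60.8% to 69.8% in controls, 71.4% in non-responder 1 and 33.4% in responder 3. Each marked pair held 1 tumour with a low and 1 with a high share of Gzma.

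The death ligand and the cytokine were rare transcripts. Fasl, the ligand of the death receptor Fas, was at 0.416, 0.713 and 0.252 CPM in controls. It was at 0.73 in responder 1, 4.46 in responder 3, 1.05 in the unmarked tumour, 0.875 in non-responder 1 and 1.61 CPM in non-responder 2. The arms did not overlap, though responder 1 and control 2 nearly met. The log2 fold change was 1.92 (SE 0.72, FDR 0.259), and 1.19 without responder 3. Ifng was at 0.624, 0.892 and 0.463 CPM in controls, 0.967 in non-responder 1, 1.7 in non-responder 2, 2.19 in responder 1, 2.1 in the unmarked tumour and 3.55 CPM in responder 3. Every Smyd3 ASO tumour again lay above every control, with a log2 fold change of 1.67 (SE 0.46, FDR 0.149). In 4 of the 8 libraries the Ifng count was not a whole number, so part of its reads were divided between genes. The other 9 genes had whole counts in all 8, to within 1e-06 of a read.

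The T-box factors ranked the tumours differently. Eomes was at 1.29, 0.892 and 0.715 CPM in controls and at 4.58 in responder 1, 3.26 in responder 3, 2.06 in the unmarked tumour, 5.16 in non-responder 1 and 2.09 CPM in non-responder 2. The arms did not overlap, and non-responder 1, near the controls for most effectors, was highest. The log2 fold change was 1.82 (SE 0.43, FDR 0.109), the smallest FDR of the 10. Tbx21 was at 0.457, 0.936 and 0.463 CPM in controls, and only responder 1 (1.05) and responder 3 (2.90) exceeded control 2. The unmarked tumour was at 0.932, non-responder 2 at 0.741 and non-responder 1 at 0.369 CPM, the lowest of all 8. Its log2 fold change was 0.96 (SE 0.65, FDR 0.526), and 0.32 without responder 3. Eomes per Tbx21, both in CPM, was 0.952 to 2.82 in controls, 1.12 to 4.35 in the other 4 Smyd3 ASO tumours and 14 in non-responder 1.

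Over all 10 genes, the fitted difference between Smyd3 ASO and control ASO was positive in each, and the median was 1.86 log2 units against 0.01 over all genes tested. The edgeR test called 0 of the 10 at an FDR of 0.05, as it called 0% of all genes. At an unadjusted p below 0.05, 8 of 10 were higher, where 8.55% of tested genes were. DESeq2 called 7 higher, namely Gzma, Gzmb, Gzmk, Prf1, Nkg7, Ifng and Eomes, where it called 3.95% of all genes higher, and limma voom called 0 with or without sample quality weights. In Gzmb, Gzmk, Ifng, Fasl and Eomes, 5 of 10, the arms did not overlap, against 5.45% of genes separated upward. This count was 9 without non-responder 1 (9.08% of genes) and 8 without control 2 (10.1%). Muscle RNA stood higher in the same 5 tumours. When a score of muscle RNA entered the model, 1 of the 10 was higher at an unadjusted p below 0.05 (2.86% of genes), and the fold changes of Gzma, Ctsw and Tbx21 turned negative (−0.66, −1.05 and −1.47). The score did not overlap between the arms, so those values are extrapolated.

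**Figure D2:**
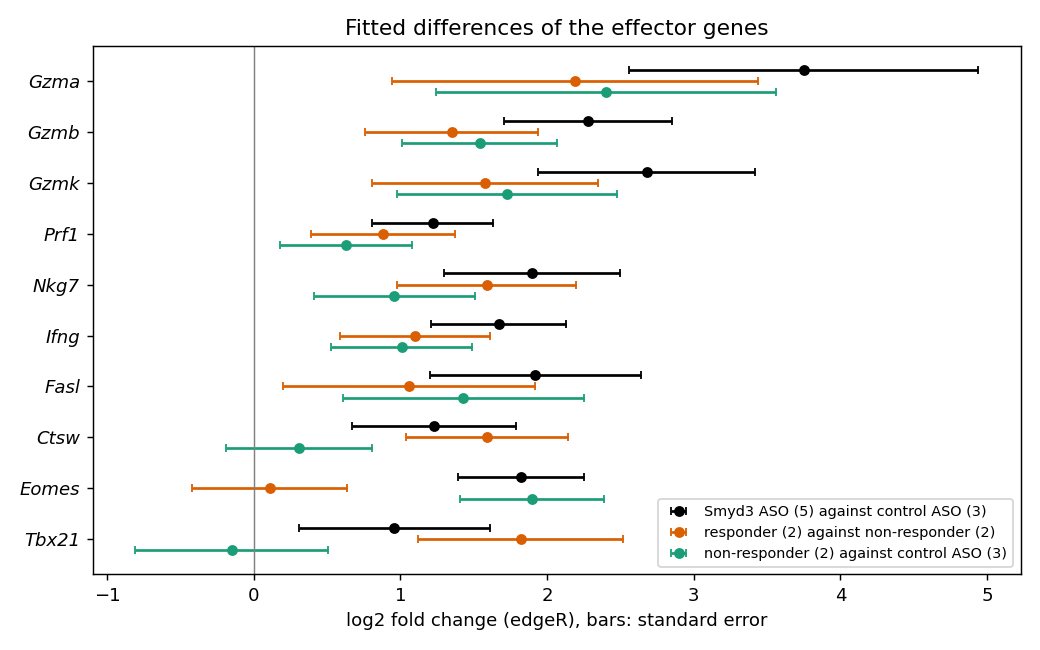
Fitted log2 fold change of each effector gene (x axis) with its standard error as bars, for Smyd3 ASO against control ASO (black), responder against non-responder (orange) and non-responder against control ASO (green). The black points all lie above 0, Eomes is near 0 between responders and non-responders at 0.11, and Tbx21 is near 0 between non-responders and controls at −0.15.

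Responders were then compared with non-responders inside the Smyd3 ASO arm, 2 tumours each. All 10 genes had a positive log2 fold change, with a median of 1.46 against 0.01 over all genes. The edgeR test called 0 of 10 (0% of all genes), and DESeq2 and limma voom also called 0. At an unadjusted p below 0.05, Nkg7, Ctsw and Tbx21 were higher, 3 of 10 against 4.74% of genes. Their log2 fold changes were 1.59 (SE 0.61, FDR 0.558), 1.59 (SE 0.55, FDR 0.543) and 1.82 (SE 0.70, FDR 0.558). In 6 of 10 genes (Gzmk, Prf1, Nkg7, Ifng, Ctsw, Tbx21) both responders lay above both non-responders, where 20.3% of genes did so. For Prf1 responder 1 (6.45 CPM) and non-responder 2 (6.4) nearly met. In the other 4 genes the response groups overlapped: non-responder 2 was above responder 1 for Gzma (14.9 against 5.23 CPM), Gzmb (13.7 against 13.3) and Fasl (1.61 against 0.73), and non-responder 1 was above both responders for Eomes. Single tumours decided these values. Without responder 3 the log2 fold changes of Gzma and Fasl were −0.69 and −0.76. That setting took Nkg7, Ctsw and Tbx21 to 0.91, 0.84 and 0.92. The count higher at an unadjusted p below 0.05 was 0 without responder 3 (1.79% of genes) and 0 without non-responder 1 (2.03%). It was 8 without responder 1 (6.21%) and 5 without non-responder 2 (6.27%). For Eomes the fold change was −0.15 without responder 1 and −0.41 without non-responder 2.

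Each marked pair was also set against the controls, which both contrasts share. Responders had all 10 genes above all controls (18.8% of genes separated upward), and the median was 2.30 log2 units. The values ran from 1.51 (SE 0.44) for Prf1 to 4.59 (SE 1.20) for Gzma, and Gzmb came closest to the threshold at 2.88 (SE 0.54, FDR 0.0541). The edgeR test called 0 of 10 where it called 1.38% of genes higher, all 10 had an unadjusted p below 0.05 (9.62% of genes), and DESeq2 called 8 (4.46% of genes higher). Voom with quality weights called Nkg7 and Ifng (1.49% of genes), and edgeR without the filter called Gzmk and Ctsw (1.31%). Without responder 3, which left responder 1 alone on that side, Prf1, Gzma and Gzmb were at 0.75, 1.69 and 1.91. Non-responders had a median of 1.22 and 5 of 10 genes above all controls (12.2% of genes), Gzmb, Gzmk, Ifng, Fasl and Eomes. That count was 9 without non-responder 1, with non-responder 2 alone on that side (25.5%), and 8 without control 2 (19.2%). The edgeR test again called 0 of 10 and 0% of genes, with 2 at an unadjusted p below 0.05, Gzmb and Eomes, against 5.1% of genes. DESeq2 called 1, Eomes, where it called 1.35% of genes higher. Eomes was at a log2 fold change of 1.90 (SE 0.49, FDR 0.367), or 1.11 without non-responder 1, and Tbx21 at −0.15 (SE 0.66, FDR 0.969) in the non-responders.

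Levels were compared between genes after division by exonic length, the bases covered by all annotated exons of a gene merged. The lengths of the transcripts present in these tumours were not used, so close ranks depend on this choice. In the controls Nkg7 was highest at 3.94 ± 2.18 CPM per kilobase (SD, n = 3), then Gzmb at 2.45 ± 0.911, Gzma at 1.6 ± 0.722, Prf1 at 1.47 ± 0.567 and Ctsw at 1.34 ± 0.304. Ifng followed at 0.509 ± 0.167, and Tbx21, Gzmk, Fasl and Eomes lay between 0.232 and 0.249 CPM per kilobase. The ranges of neighbours in this order overlapped, except between Ctsw (1.09 to 1.68) and Ifng (0.358 to 0.689). In the Smyd3 ASO tumours Gzma had the highest mean, 21.6 ± 28.6 (SD, n = 5), above Nkg7 at 14.7 ± 10.1 and Gzmb at 11.9 ± 8.64 CPM per kilobase. Gzma exceeded Nkg7 in 3 of the 5 tumours, responder 3 (71.9 against 31.7), the unmarked tumour (14 against 12.3) and non-responder 2 (14.8 against 10.2). Nkg7 exceeded Gzma in responder 1 (14.2 against 5.2) and non-responder 1 (5.09 against 2.06).

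The rest of the granzyme family did not follow Gzma, Gzmb and Gzmk. In the mouse, Gzmb sits on chromosome 14 (mm10, 56258838 to 56262260, minus strand) in a cluster with Gzmc, Gzmd, Gzme, Gzmf and Gzmg, which are close copies of one another, while Gzma (113093825 to 113100981) and Gzmk (113171608 to 113225908) lie on chromosome 13. Gzmn, also in the cluster, had 14 reads over all libraries and was not tested. Gzmc was at 12.7, 12.3 and 4.46 CPM in controls and at 3.88 to 7.06 CPM in the Smyd3 ASO arm (log2 fold change −0.89, SE 0.35, FDR 0.273). Gzmd was at 12.9, 22.2 and 2.27 CPM in controls and at 1.3 to 6.29 CPM in the Smyd3 ASO arm (−1.53, SE 0.65, FDR 0.307), and Gzme at 13.7, 20.8 and 2.57 against 1.52 to 8.44 CPM (−1.03, SE 0.65, FDR 0.485). Control 3 was low in all of these, so the arms overlapped. Responder 3, highest for Gzma and Gzmb, was the lowest of the 8 for Gzmc, Gzmd, Gzme, Gzmf and Gzmg. Of the 6 measured genes outside the effector set, 4 had negative fold changes with a median of −0.96, and edgeR called 0, with 2 lower at an unadjusted p below 0.05, as 7% of all genes were. The positive fold changes were those of Gzmf (0.48, SE 0.75) and Gzmm (0.50, SE 0.50). Reads of near copies are hard to assign, and the counts of Gzmc, Gzmd, Gzme and Gzmg were not whole, by more than 1e-06 of a read, in 1 to 3 libraries.

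**Figure D3:**
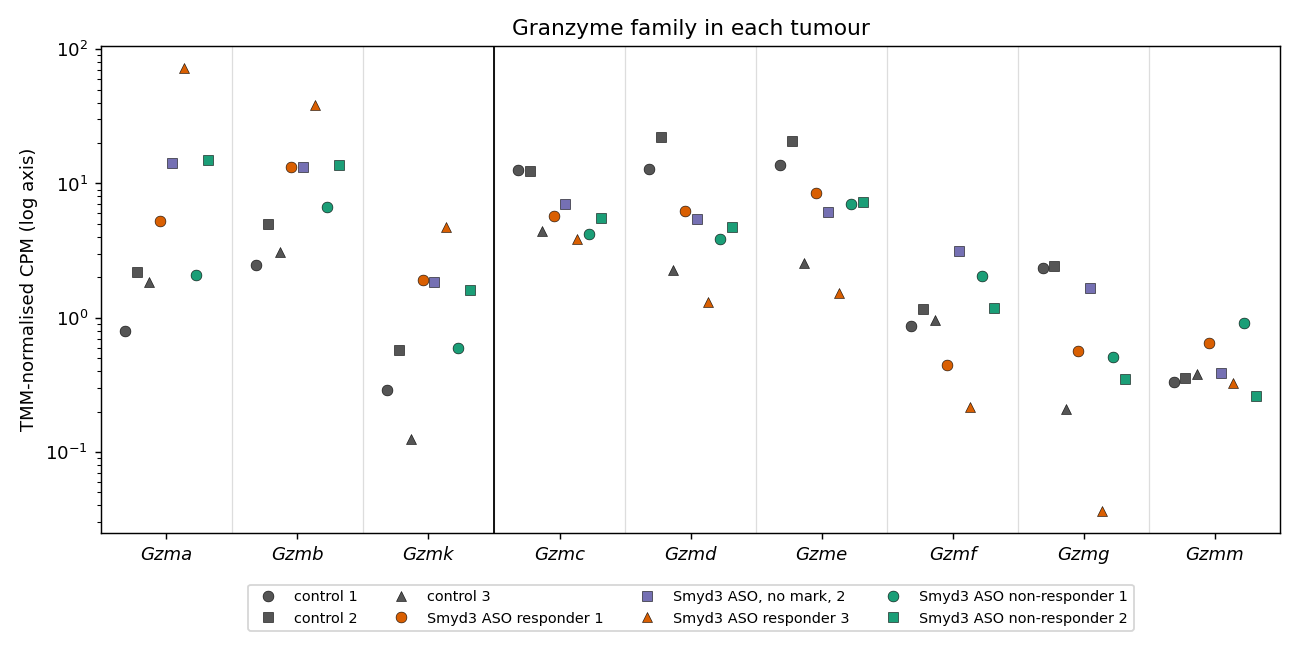
Level of 9 granzyme genes in each tumour, in TMM-normalised CPM on a log axis, with colours and shapes by tumour as in the plot of the effector genes; the black line divides Gzma, Gzmb and Gzmk from the other granzymes. Responder 3 is the top point on the left (72.3 CPM for Gzma) and the bottom point for Gzmc to Gzmg on the right (1.3 CPM for Gzmd).

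Per exonic kilobase, Gzmc to Gzmg together made up 94%, 91% and 72.6% of the signal of 9 granzymes in the controls. Their share was 71.2% in non-responder 1, 58.8% in responder 1, 50.7% in the unmarked tumour, 44.5% in non-responder 2 and 6.93% in responder 3. All Smyd3 ASO tumours were thus below all controls, although control 3 and non-responder 1 nearly met.

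The 250 bases before the RefSeq start of these genes (GRCm38.p6, the mm10 build) are shown for 5 granzymes, because Gzmb had a positive and Gzmc and Gzme, of the same cluster, a negative fold change between the arms. They are chr13:113100982-113101231 for Gzma, chr14:56262335-56262584 for Gzmb, chr13:113180966-113181215 for Gzmk, chr14:56234658-56234907 for Gzmc and chr14:56120626-56120875 for Gzme, all on the minus strand and written in the direction of transcription. Capitals mark the core letters of a T-box site (TCACAC, or GTGTGA on the other strand) and of a Runx site (TGTGGT, or ACCACA on the other strand).
Gzma: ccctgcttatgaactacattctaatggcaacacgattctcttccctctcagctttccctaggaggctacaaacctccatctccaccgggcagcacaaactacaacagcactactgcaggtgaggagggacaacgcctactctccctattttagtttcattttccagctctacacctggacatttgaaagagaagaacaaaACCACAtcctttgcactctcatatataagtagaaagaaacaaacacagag
Gzmb: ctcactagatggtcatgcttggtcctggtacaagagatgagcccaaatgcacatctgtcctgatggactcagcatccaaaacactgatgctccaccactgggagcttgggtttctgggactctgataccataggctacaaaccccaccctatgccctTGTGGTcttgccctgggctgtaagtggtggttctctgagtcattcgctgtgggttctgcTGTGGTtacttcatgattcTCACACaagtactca
Gzmk: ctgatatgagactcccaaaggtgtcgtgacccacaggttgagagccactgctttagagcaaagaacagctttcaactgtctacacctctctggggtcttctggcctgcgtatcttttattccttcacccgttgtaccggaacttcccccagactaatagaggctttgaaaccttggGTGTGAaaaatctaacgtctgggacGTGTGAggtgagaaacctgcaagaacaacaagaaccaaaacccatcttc
Gzmc: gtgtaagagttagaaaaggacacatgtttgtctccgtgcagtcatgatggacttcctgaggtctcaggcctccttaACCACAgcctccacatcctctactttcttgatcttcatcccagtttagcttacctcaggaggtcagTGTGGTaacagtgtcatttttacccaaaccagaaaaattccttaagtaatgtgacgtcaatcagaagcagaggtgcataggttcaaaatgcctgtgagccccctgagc
Gzme: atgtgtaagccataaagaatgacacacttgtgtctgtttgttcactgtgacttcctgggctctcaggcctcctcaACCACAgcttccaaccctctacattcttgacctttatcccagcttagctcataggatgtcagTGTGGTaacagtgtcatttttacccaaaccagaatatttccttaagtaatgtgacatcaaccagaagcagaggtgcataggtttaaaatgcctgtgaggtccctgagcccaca
The windows of Gzmc to Gzmg were 71.5% to 94.8% identical to one another over 10 pairs, whereas that of Gzmb was 47.3% to 52.2% identical to them and the 3 windows of Gzma, Gzmb and Gzmk were 50% to 51.5% identical to each other. The window of Gzmn, also in the cluster, was 48.8% (Gzme) to 52.4% (Gzmc) identical to those of Gzmc to Gzmg. Gzmb carried the T-box letters 15 to 10 bases before the start and the Runx letters at 93 to 88 and 34 to 29 bases. Gzmk carried the T-box letters at 74 to 69 and 49 to 44 bases, and Gzma the Runx letters at 50 to 45 bases. Gzmc and Gzme held the Runx letters in 2 places each and the T-box letters in none. The same held for Gzmf, whose fold change between the arms was positive (0.48, SE 0.75). All positions count from the RefSeq start. In GENCODE Gzmb starts further downstream, at 56262260, and Gzmk starts at 113225908, so the Gzmk window lies inside that gene. For Gzmb, Gzmk and Prf1 no GENCODE transcript held the checked stretch after the RefSeq start.

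RefSeq windows were found for 9 of the 10 effector genes, all but Ctsw. The T-box letters were present in 3 of the 9 (Gzmb, Gzmk and Nkg7), against 12.3% of all 32851 windows of this length, and the Runx letters in 4 (Gzma, Gzmb, Prf1 and Nkg7), against 14% of windows. The letters TGANTCA, bound by AP-1, were in Gzmb alone of the 9 (6.75% of windows), and TTCNNNGAA, bound by STAT proteins, in Nkg7 and Ifng (7.02%). TATAAA was in Ifng (12.4%). These are letter matches on both strands and were not tested for binding. The Nkg7 window held 65 GENCODE exon bases. Its T-box letters, 12 to 7 bases before the RefSeq start, therefore lay in an annotated exon.

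T cell transcripts were highest in responder 3, like most effectors. In 3 of the 13 genes listed, Cd8a, Cd3d and Trbc2, the arms did not overlap, where 5.45% of all genes separated upward. Cd8a, the coreceptor of cytotoxic T cells, was at 3.99, 6.69 and 5.05 CPM in controls and at 7.74 to 39.5 CPM in Smyd3 ASO tumours, with a log2 fold change of 1.92 (SE 0.48, FDR 0.13). For Cd3d and Trbc2, of the T cell receptor complex, it was 1.92 (SE 0.47, FDR 0.124) and 1.44 (SE 0.42, FDR 0.173), and for Cd3e and Cd3g 1.35 and 1.74. Non-responder 1 was below control 2 for Cd3e (2.44 against 4.24 CPM) and Cd3g (3.73 against 4.9). Cd4 showed 0.30 (SE 0.48, FDR 0.811), and control 2 (19.1 CPM) exceeded every Smyd3 ASO tumour except responder 3 (25.1). All 13 genes of the list had positive fold changes, and the median was 1.44. Of these 0 were called by edgeR and 10 were higher at an unadjusted p below 0.05, where 8.55% of all genes were. Their summed level was 33.5 to 66.8 CPM in controls and 49.9 to 220 CPM in the Smyd3 ASO arm.

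Each effector was therefore also set against the T cell receptor, as its log2 CPM minus the mean log2 CPM of Cd3d, Cd3e and Cd3g (with a prior count of 2, which draws rare genes such as Gzmk together). The spread on this scale was smaller for 9 of the 10. For Nkg7 the range over the 8 tumours went from 3.62 to 0.56 log2 units, for Ifng from 2.74 to 0.73 and for Gzmb from 3.91 to 0.82. For Gzma it went from 6.37 to 3.28, still the widest of the 10, and for Eomes from 2.72 to 2.96.

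Relative to Cd3, Gzmb was at 0.54 to 0.63 in controls and 0.87 to 1.36 in Smyd3 ASO tumours, and Gzmk at −3.30 to −2.24 and −2.16 to −1.65. These were the effectors with no overlap upward, where 0.733% of all genes had none. Ctsw (−0.02 to 0.47 in controls, −0.56 to −0.17 in the Smyd3 ASO arm) and Tbx21 (−1.92 to −1.69 and −2.75 to −2.34) lay wholly below the controls, as 36.1% of genes did. Prf1 (mean 0.70 and 0.35), Nkg7 (0.56 and 0.82), Ifng (−1.67 and −1.68), Fasl (−2.16 and −2.14), Gzma (−0.55 and 0.79) and Eomes (−1.16 and −0.98) overlapped. Relative to Cd8a, Gzmb was at −0.59 ± 0.15 (SD, n = 3) in controls and −0.27 ± 0.17 (SD, n = 5) in Smyd3 ASO tumours, with control 2 (−0.42) inside the range of the latter. Prf1 was at −0.49 ± 0.27 and −1.09 ± 0.43. Between response groups, Prf1, Ifng and Fasl relative to Cd3 were lower in both responders than in both non-responders, as were 81.9% of genes. Nkg7 and Tbx21 were higher, as were 1.69%. No test was made on this scale.

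**Figure D4:**
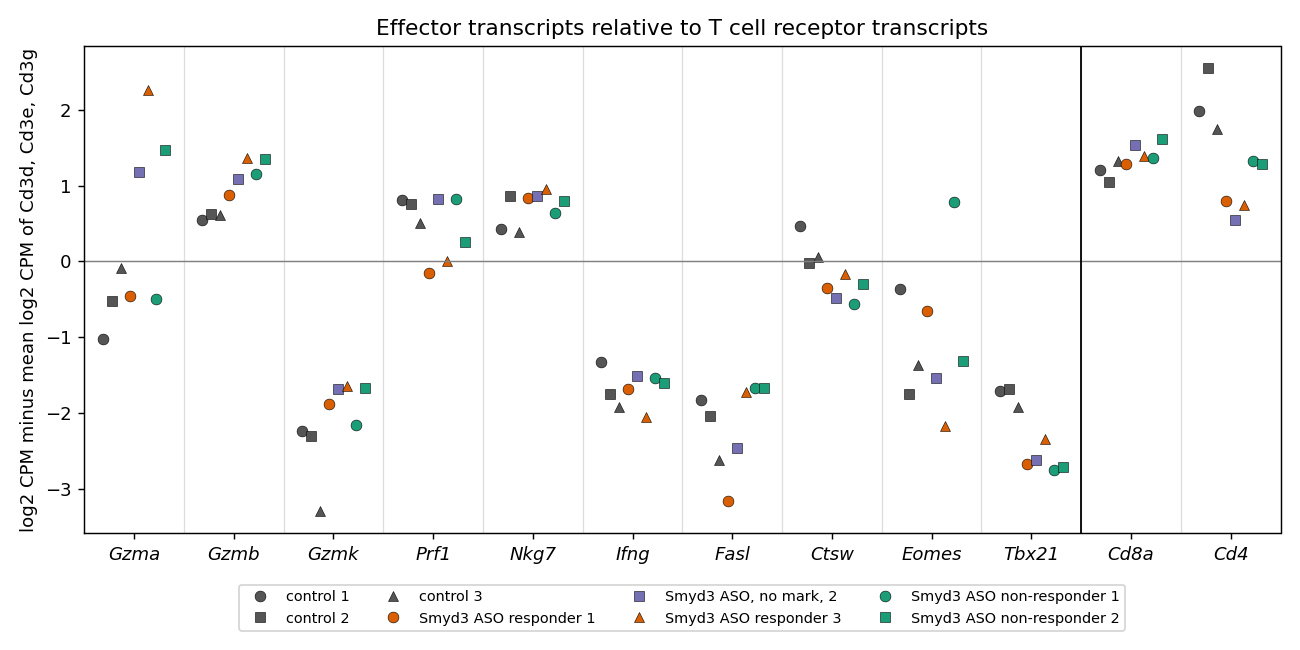
Log2 CPM of each effector gene, and of Cd8a and Cd4 to the right of the black line, minus the mean log2 CPM of Cd3d, Cd3e and Cd3g, with 1 point per tumour. The 8 points of Nkg7 span 0.56 log2 units, while those of Gzma span 3.28 and the single high Eomes point at 0.78 is non-responder 1.

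NK cell markers were sparse. Ncr1, the defining receptor of NK cells, was at 0, 0.624 and 0.21 CPM in controls and at 0.138 to 1.12 CPM in Smyd3 ASO tumours (log2 fold change 0.60, SE 1.03, FDR 0.825). The 14 NK genes summed to 11 to 23.8 CPM in controls and 15.4 to 55.5 CPM in the other arm. Of these, 13 had positive fold changes (median 0.98), and activated T cells can express several of them. Klrd1 (1.83, SE 0.57), Klrc1 (1.59, SE 0.56) and Klrc2 (1.76, SE 0.71) had the smallest p, with FDR of 0.196, 0.230 and 0.285. Mast cells, which can hold granzymes, were also present: their 10 markers summed to 41.9 to 52.9 CPM in controls and 45.3 to 171 CPM in the Smyd3 ASO arm, with the most in responder 3 and a median of 1.03 (Hdc 1.38, Ms4a2 2.28, Fcer1a 1.39). The 5 plasmacytoid dendritic cell markers tested had a median of 1.03 (Ccr9 2.12, Pacsin1 1.61, Tcf4 −0.25). The part of any of these cells in the effector levels was not tested.

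The remaining immune and tissue lists are given by their median log2 fold change between the arms. B cell markers had a median of 1.59 over 5 genes (Cd79a 2.56, Ms4a1 2.43), with 0 higher at an unadjusted p below 0.05 (8.55% of all genes). Their summed level overlapped, at 1.58 to 3.12 CPM in controls and 1.06 to 12.2 CPM in the Smyd3 ASO arm, with the most in responder 3. Macrophage markers had a median of 0.10 over 9 (Cd14 0.78, Adgre1 0.29, Mrc1 −0.28). The median was 0.34 over 7 neutrophil markers (Retnlg 0.46, Csf3r 0.34, Cxcr2 0.36) and −0.23 over 12 squamous markers (Pkp1 −0.62, Dsp −0.45, Krt14 −0.32). Muscle markers had the largest, 5.83 over 20 (Myh1 4.47, Ryr1 4.49, Ckm 8.81). All 20 were higher at an unadjusted p below 0.05 (8.55% of all genes) and did not overlap between the arms (5.45%). In responders against controls edgeR called 18 of them, where it called 1.38% of genes higher. Adipocyte markers had a median of 5.39 over 9 (Plin4 5.39, Cfd 8.50, Cidec 7.53). Responder 3 held 71.4%, 86% and 88.7% of the signal of these 3 genes over the 8 tumours, and the summed adipocyte level overlapped, at 36.4 to 65.9 CPM in controls and 44.5 to 358 CPM in the other arm. Squamous markers in sum were lowest in responder 3 and responder 1, at 24100 and 27200 CPM, where controls held 34900 to 43400 CPM.

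Genes around the effectors were taken from lists of the same pathway. The 7 effector cytokines and chemokines tested all had positive fold changes. All 7 were higher at an unadjusted p below 0.05, where 8.55% of all genes were. The median was 1.37, and 0 were called by edgeR. Tnf was at 9.05 to 9.39 CPM in controls and 12.3 to 18.5 CPM in the Smyd3 ASO arm (log2 fold change 0.70, SE 0.16, FDR 0.106). Tnfsf10, which encodes the death ligand TRAIL, showed 1.40 (SE 0.34, FDR 0.116) and Ccl5, a chemokine stored with granules, 2.20 (SE 0.55, FDR 0.131). The 13 measured genes of granule formation and release were spread about 0: 6 had positive and 7 negative fold changes (median −0.05). Of these 0 were below an unadjusted p of 0.05, where 15.6% of all genes were in either direction. Srgn, the proteoglycan core of granules, was at 0.49, Unc13d, which primes granules for fusion, at −0.32 and Lamp2 at −0.22. Many of these are expressed by most cell types.

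Targets of the killing pathways were also near 0. Of 10 genes 7 had positive fold changes (median 0.06), with 3 higher at an unadjusted p below 0.05 (8.55% of all genes). Among them were Bid, a substrate of granzyme B (0.31, SE 0.10), and Fas (0.84, SE 0.33), with FDR of 0.207 and 0.270. Among 14 genes of interferon gamma signalling 13 had positive fold changes (median 1.19). At an unadjusted p below 0.05, 10 were higher, again against 8.55% of genes. Tgtp1, Igtp and Irgm2, GTPases induced by interferon gamma, were at 2.04, 1.90 and 1.75 with an FDR of 0.0656 each. In responders against controls edgeR called 5 of the 14 higher, where it called 1.38% of all genes higher. Among the 5 were Igtp, Irgm2, Tgtp1 and Irf1, the last named after its value was seen.

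Upstream of the effectors, 13 measured cytokines and receptors that induce them all had positive fold changes (median 0.96). Of these 7 were higher at an unadjusted p below 0.05 (8.55% of all genes). The receptor chains for interleukin 12, Il12rb2 and Il12rb1, showed 1.77 (SE 0.41, FDR 0.106) and 1.96 (SE 0.57, FDR 0.172), and Il15ra 0.93 (SE 0.28, FDR 0.187). Of 18 other transcription factors of effector T cells 11 had positive and 7 negative fold changes (median 0.49). Tox2 was at 2.72 (SE 0.70, FDR 0.135), Stat4, which carries the interleukin 12 signal, at 1.26 (SE 0.46, FDR 0.252) and Irf4 at 1.96 (SE 0.76, FDR 0.269). The edgeR test called 0 genes of either list between the arms.

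The genes most like the effectors were sought among 14356 other genes with a mean log2 CPM of at least 0. Likeness was the root mean square difference, over the 8 tumours, between a gene's centred log2 CPM and the mean of the 10 effectors. The 8 closest were Ms4a4b (0.146 log2 units), Cd3g (0.153), Cd8a (0.168), Sla2 (0.203), Cd96 (0.208), Lck (0.22), Batf2 (0.23) and Satb1 (0.23). Of the effectors themselves, which helped to make the mean, Nkg7 (0.22), Ifng (0.23) and Gzmb (0.24) were closest to it, while Gzma (1.04) and Eomes (0.88) were farthest. Cd8a, at 0.168, was nearer to the mean of the effectors than each of the 10 was.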

How the data were processed

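Bulk polyA RNA was measured in 8 tumours, with TruSeq Stranded mRNA libraries per the labels' protocols. The deposited values are the authors' expected counts, unscaled, with a column for each tumour. Tools in the submitters' processing notes, given without roles or settings, are RSEM 1.3.0, STAR 2.7.0f, cutadapt 1.18 and bcl2fastq 2.17, on mm10. All 55450 identifiers were found in GENCODE M21, which gave coordinates and exonic lengths. Promoter windows are from RefSeq (GRCm38.p6).

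Columns were matched to tumours through the descriptions of the labels. Expected counts were rounded. Genes were kept with 10 reads in the median library (0.424 CPM) in 2 or more libraries and 15 reads in all, which held 99.93% of reads. They were fitted in R 4.3.3 with edgeR 4.0.16 (TMM, factors 0.9638 to 1.04, robust quasi-likelihood, two-sided, Benjamini-Hochberg FDR over all tested genes, threshold 0.05). The arms were compared with treatment as the only term, and the response contrasts in a model with 4 groups over all 8 libraries. Standard errors were derived from the fold change and F. DESeq2 1.42.0, limma 3.58.1 voom, other scaling and filters, a muscle covariate and leaving out libraries were alternatives. The steps were tested on simulated counts.

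The 10 genes, 17 further lists and the rule for named genes (all 10, the 3 smallest p of each list, and 8 alike genes) were chosen with earlier results of these data known. Some genes the rule names are not reported here. The p-values set group differences against the spread between these tumours. In the model with 4 groups the unmarked tumour, alone in its group, added nothing to that spread. The titles carry a different bracketed number for each tumour, and the labels do not say whether each came from a separate mouse.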

Additional observations from a re-analysis of the deposited data

How the results depend on the processing

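At an FDR of 0.05 none of the 10 effector genes was called by the main edgeR fits in any of the 4 comparisons. In Smyd3 ASO against control ASO, DESeq2 called 7, where it called 3.95% of all genes higher. Every other alternative called 0, where it called 0% to 1.42% of genes higher. These were voom with and without weights, RLE factors, no filter, a stricter filter, the muscle covariate and the mean of the response groups. Fits without each library and of the 6 numbered libraries were the rest. In responder against control ASO, DESeq2 called 8 (4.46% of genes higher) and voom with quality weights 2, Nkg7 and Ifng (1.49%). The edgeR fit with no filter called 2, Gzmk and Ctsw (1.31%). Fits without a library that kept both responders called 0 (0% to 1.42%). Fits without a responder left 1 tumour on that side and are not counted here. In non-responder against control ASO, DESeq2 called 1 (1.35% of genes higher). In responder against non-responder, every alternative that kept 2 tumours on each side called 0, with 0.94% of genes called higher by DESeq2. Counts of genes with groups that do not overlap, left-out libraries being an addition made after seeing the data, ranged from 5 to 9 for the arms (6.01% to 10.1% of all genes), 6 to 9 for responder against non-responder (32.9% to 40%) and 5 to 9 for non-responder against control (16.9% to 30.5%), and was 10 throughout for responder against control (23.3% to 33.2%).

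Of 676 single-gene values under alternatives 641 kept their direction without coming to pass the threshold, 21 came to pass it and 14 turned. Some of the 676 were plain differences of mean log2 levels, made without a fit. These had no FDR and were judged on direction alone. None of the genes passed in the main fits, so none could fall back below the threshold. The cause of the changes was not tested. With the muscle covariate Gzma, Ctsw and Tbx21 turned between the arms (−0.66, −1.05, −1.47), Gzma (−0.08) between responders and controls, and Gzma (−0.39) and Ctsw (−0.16) between non-responders and controls. Between responders and non-responders Eomes turned without responder 1 (−0.15) or non-responder 2 (−0.41), and Gzma (−0.69) and Fasl (−0.76) without responder 3. With 1 library left out these ranged from −0.41 to 0.90, −0.69 to 4.22 and −0.76 to 1.84. Between non-responders and controls Tbx21 turned with voom quality weights (0.05), without control 2 (0.29) or without non-responder 1 (0.26), and Ctsw without non-responder 2 (−0.36). Their ranges were −0.74 to 0.29 and −0.36 to 0.77.

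Control and Smyd3 ASO tumours share the numbers 1 to 3, but same-numbered tumours did not deviate together (r = −0.034, 0 and 0.076), so the number was not taken as a pairing. With the replicate block over the 6 numbered libraries, 0 effector genes and 245 of all genes were called, against 0 and 286 in the same libraries without the block and 0 and 0 in all 8. Gzmk, Fasl, Tbx21 and Ifng rest on 3 to 21 reads per control library. How far this low depth limited the detection of differences in them was not tested.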
